A study of Mus musculus with 7 samples.

Results

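The regulators and effectors of mesenchymal transition were taken here as 10 genes, found by their symbols in a table of raw RNA sequencing counts that held 26583 usable gene entries. They comprised 6 transcription factor genes (Snai1, Snai2, Twist1, Twist2, Zeb1 and Zeb2) and 4 effector genes (Cdh2, Vim, S100a4 and Acta2). All 10 were in the table, and 9 of them passed the filter on low counts that left 13453 genes for testing; Acta2 did not. The libraries came from lymphatic endothelial cells (LECs), which form the wall of lymphatic vessels, taken from the ear pinna of mice. The 4 tumour libraries were from BPC melanomas of mice that carried BrafCA/+ and Cre (Cre+), of which replicates 1 and 2 were male and replicates 3 and 4 female. The 3 naive libraries were from ear skin without tumour. Naive replicates 1 (both sexes pooled) and 3 (male) carried BrafCA/+ without Cre (Cre-), and the label of naive replicate 2 (female) joins that genotype with Braf+/+ and Cre+. The sources used here do not give the promoter that drives Cre, the age of the mice, how the cells were sorted or how many mice a library holds. The p-values therefore refer to the spread among these 7 libraries, which may be technical.

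Mesenchymal transition is the change by which cells held together by junctions loosen them and take on the shape, motility and contractile proteins of mesenchymal cells; in endothelium it is called endothelial-to-mesenchymal transition. The Snail (Snai), Twist and Zeb families encode transcription factors that bind E-boxes and repress junction genes, and TGF-beta signalling is a known inducer of them. N-cadherin (Cdh2), vimentin (Vim), S100a4 and smooth muscle actin (Acta2) are read-outs of the mesenchymal state, but none belongs to that state alone: vimentin is a regular component of endothelium, Zeb2 is also made by myeloid cells, fibroblasts and melanocytes, and Acta2 marks mural cells and myofibroblasts.

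Total counts were 53066074 to 63067314 in the tumour libraries and 59839543 to 63153369 in the naive libraries. A floor of 3 counts corresponded to 0.0476 to 0.0567 CPM, the counts of a gene per 1000000 counts of its library after TMM scaling. The 12 markers of lymphatic endothelium summed to 11183 to 14687 CPM in the tumour libraries and 12832 to 15703 CPM in the naive libraries, and Mmrn1 and Lyve1 were the most abundant. Sox18 alone of the 12 was called higher (log2 fold change 0.92, adjusted p = 0.0412, edgeR's quasi-likelihood test), and 0 were called lower. The Sox18 call was lost when any 1 library was left out. In each tumour library Lyve1 and Nrp2 also lay above every naive library, and Tbx1 lay below. In bulk samples, fewer cells of a type and less RNA per cell cannot be told apart.

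Among the 10 genes, Zeb2 alone passed the test between tumour and naive skin. It stood at 4.34 to 21.2 CPM in the tumour libraries, against at most 0.0521 CPM in the naive libraries. Zeb2 and Cdh2 passed the filter on low counts through the tumour libraries alone. Without a filter Zeb2 also passed (adjusted p = 0.00857, edgeR's quasi-likelihood test). Vim, Zeb1 and S100a4 were present in every library and their values overlapped between the groups. Snai2 was higher and Snai1 lower in each tumour library than in any naive library, but neither passed the test. Twist1, Twist2, Cdh2 and Acta2 were low or absent in naive skin and very uneven between tumours. Of all genes tested, 0.899% were called higher and 0.803% lower (edgeR's quasi-likelihood test, Benjamini-Hochberg adjusted p under 0.05), which is 1.7% in either direction. Among the 10 genes 1 was called higher and 0 lower. At an unadjusted p under 0.05 there were 2 higher of the 9 tested, Zeb2 and Cdh2, and 0 lower, where 9.1% of all genes tested were higher and 7.83% lower. DESeq2 called 3 higher, Zeb2, Cdh2 and Acta2, and 0 lower, where it called 6.95% of all genes higher and 4.15% lower. Limma-voom called 0 of the 9 tested in either direction, with 0.751% of all genes higher and 1.29% lower. Limma on the authors' deposited log2 values called Snai2 and Zeb2 higher and 0 lower, with 1.43% of all genes higher and 1.22% lower.

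**Figure D1:**
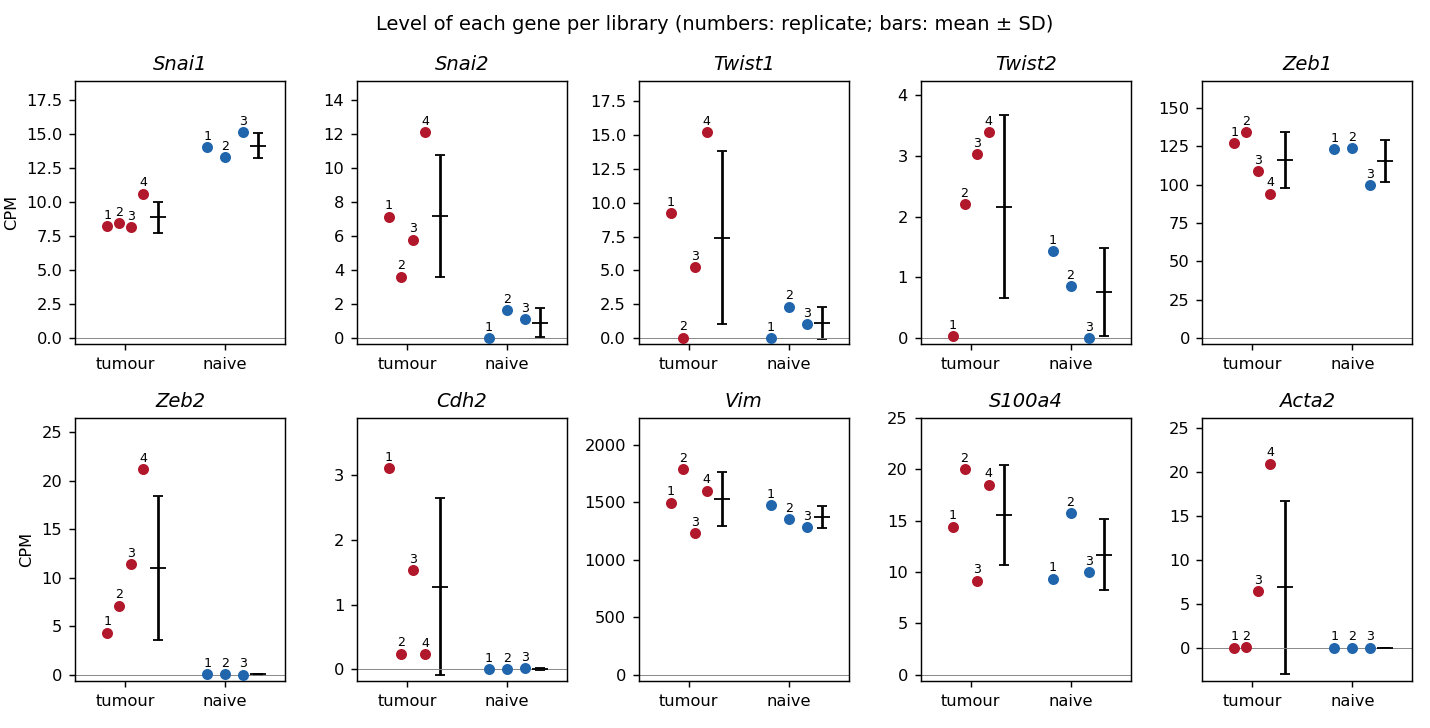
Each panel plots 1 gene in CPM (linear axis) for the 4 tumour libraries (left, red) and the 3 naive libraries (right, blue); digits are replicate numbers and black bars are mean ± SD. Zeb2 lies between 4.34 and 21.2 CPM in tumour and near 0 in naive skin, while Zeb1 and Vim overlap between the groups.

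The regulators act on DNA, and the windows before the starts of Zeb2, the gene that passed, and Snai1, the regulator that stood lowest relative to naive skin, are shown for that reason. They are 250 bases long, read 5′ to 3′ on the strand of the gene, and come from RefSeq on GRCm38.p6. Windows were read for 7 of the 10 genes. Snai2, Zeb1 and Cdh2 were not among them, which does not show that these genes lack such a window. The E-box letters CANNTG were searched, and among them CAGGTG, the form that Snail and Zeb proteins are known to prefer, on both strands; each CAGGTG is also a CANNTG. Capitals mark a match, and CACCTG is CAGGTG read on the other strand.
Zeb2 (chr2:45117443-45117692, minus strand): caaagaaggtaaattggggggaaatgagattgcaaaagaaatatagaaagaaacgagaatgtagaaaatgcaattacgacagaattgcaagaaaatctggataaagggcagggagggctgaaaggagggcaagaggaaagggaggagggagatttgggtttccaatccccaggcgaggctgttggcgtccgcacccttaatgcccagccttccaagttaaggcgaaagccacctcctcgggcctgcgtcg
Snai1 (chr2:167537945-167538194, plus strand): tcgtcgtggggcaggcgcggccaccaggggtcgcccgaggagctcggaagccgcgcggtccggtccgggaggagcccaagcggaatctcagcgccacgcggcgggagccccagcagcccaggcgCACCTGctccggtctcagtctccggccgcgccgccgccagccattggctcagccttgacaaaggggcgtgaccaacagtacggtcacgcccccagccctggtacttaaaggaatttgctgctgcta
The Snai1 window held 1 match, which begins 126 bases before the start. The Zeb2 window held 0, as did the other windows listed for Zeb2 starts. Of 32851 windows of this length over all genes, 66.2% held CANNTG and 17.2% held CAGGTG. A match describes letters and is not a binding site, and a window without one says nothing of any factor.

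Zeb2 and Zeb1 encode paired zinc-finger repressors that share targets. Zeb2 (chromosome 2, 44983632 to 45117395 in GRCm38) had 4.34, 7.12, 11.4 and 21.2 CPM in tumour replicates 1 to 4, against 0.0515, 0.0521 and 0.0173 CPM in naive replicates 1 to 3. The groups did not overlap; tumour replicate 4 was the highest and tumour replicate 1 the lowest of its group. In counts, the tumour libraries held 2680 in all and the naive libraries 7, which is near the floor in each naive library. Scaled for library size, the summed counts stood in a ratio of 273 (exact 95% interval for counting error 132 to 679), and of 190.4 without tumour replicate 4. The interval covers counting error only, since amplified reads without molecular identifiers are not independent molecules. The fitted log2 fold change was 8.02 (SE 1.01, adjusted p = 0.0125, edgeR's quasi-likelihood test), higher in 4 of 4 tumour libraries. In the authors' deposited log2 values the difference was 1.41 (adjusted p = 0.0257, limma).

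The Zeb2 call held without any 1 tumour library (adjusted p = 0.0234 to 0.0414) and was lost without any 1 naive library (adjusted p = 0.0573 to 0.0681), with sex in the model (0.0604), with the lane in the model (0.409) and in limma-voom (0.12), while the log2 fold change in these fits was 7.50 to 9.21. Within lane tag 8, Zeb2 was at 11.4 CPM in tumour replicate 3 and 0.0173 CPM in naive replicate 3. Lane tags are in the sample descriptions, and only tag 8 covers both groups, with 1 library of each. Fits with lane in the model therefore take the group difference from that 1 library of each group. An antisense gene, Zeb2os, overlaps Zeb2, and the library kit does not mark strand, so reads of the pair cannot be told apart. The same limit applies to other members. Genes on the opposite strand overlap Cdh2 (Gm15485), Twist2 (Gm29100) and Zeb1 (Gm10125), and Gm42674 overlaps S100a4 on the same strand.

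Marker genes of several other cell types were read beside Zeb2. Of 14 myeloid markers, all in the table, 11 were tested, and 4 were higher (Emr1, C1qc, Lyz2 and Mrc1) and 0 lower. Their sum was 365 to 645 CPM in tumour and 167 to 227 CPM in naive skin. Emr1 (now Adgre1), which encodes the macrophage antigen F4/80, had 1.26, 5.12, 10.1 and 20.3 CPM in tumour replicates 1 to 4 and 0 in each naive library. Its order over the tumour libraries is that of Zeb2, and Emr1 is the only one of the 11 tested myeloid markers with that order. C1qc had 39.0, 52.9, 11.7 and 66.2 CPM in tumour replicates 1 to 4, and Mrc1 had 146, 162, 220.1 and 140.1 CPM, lowest in replicate 4. The pan-leukocyte gene Ptprc, looked up after these values were seen, had 0 CPM in tumour replicates 1 and 3, 0.0492 CPM in replicate 2 and 6.32 CPM in replicate 4, and 0 in each naive library. Of the 14 fibroblast markers 3 were higher (Pdgfra, Mfap5 and Fbln2) and 0 lower, with sums of 2561 to 19469 CPM in tumour and 1049 to 1811 CPM in naive skin. Pdgfra had 9.72, 7.87, 27.8 and 58.8 CPM in tumour replicates 1 to 4, against 0.0344 to 0.0864 CPM in the naive libraries. Among the fibroblast markers, Dcn and Postn alone had the order of Zeb2 over the tumour libraries. In tumour replicates 1 to 4 Dcn had 188, 226, 519 and 1512 CPM and Postn 52.0, 59.8, 131 and 287 CPM. Of 12 melanocyte markers 7 were tested, and Dct and Sox10 were higher and 0 lower; the sums were 20.6 to 229 CPM in tumour and 1.68 to 8.80 CPM in naive skin. Without any 1 naive library, 0 markers of the myeloid, fibroblast or melanocyte lists passed. With all libraries, 8, 10 and 5 of them in that order were higher at an unadjusted p under 0.05, beside 9.1% of all genes. DESeq2 called 8, 9 and 6 higher and limma-voom 1, 1 and 0, beside 6.95% and 0.751% of all genes. In these fits 0 were lower. Emr1, Pdgfra, Dct and Sox10 passed the filter through the tumour libraries alone. Of 11 tested markers of blood endothelium 2 were higher (Aqp1 and Selp) and 0 lower with edgeR, with sums of 1491 to 1731 CPM in tumour and 927 to 1213 CPM in naive skin. Emcn, of the same list, was below every naive library in all 4 tumour libraries (log2 fold change -1.01, adjusted p = 0.0673, edgeR). It was called lower by DESeq2, limma-voom and limma on the deposited values. Of the list, these called 6, 3 and 4 genes higher in that order, and 1 lower each. At an unadjusted p under 0.05 with edgeR, 5 were higher and 2 lower (Emcn and Nos3). Of 10 lymphocyte markers 1 was tested and did not pass. The part of these cells in the Zeb2 result was not tested.

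**Figure D2:**
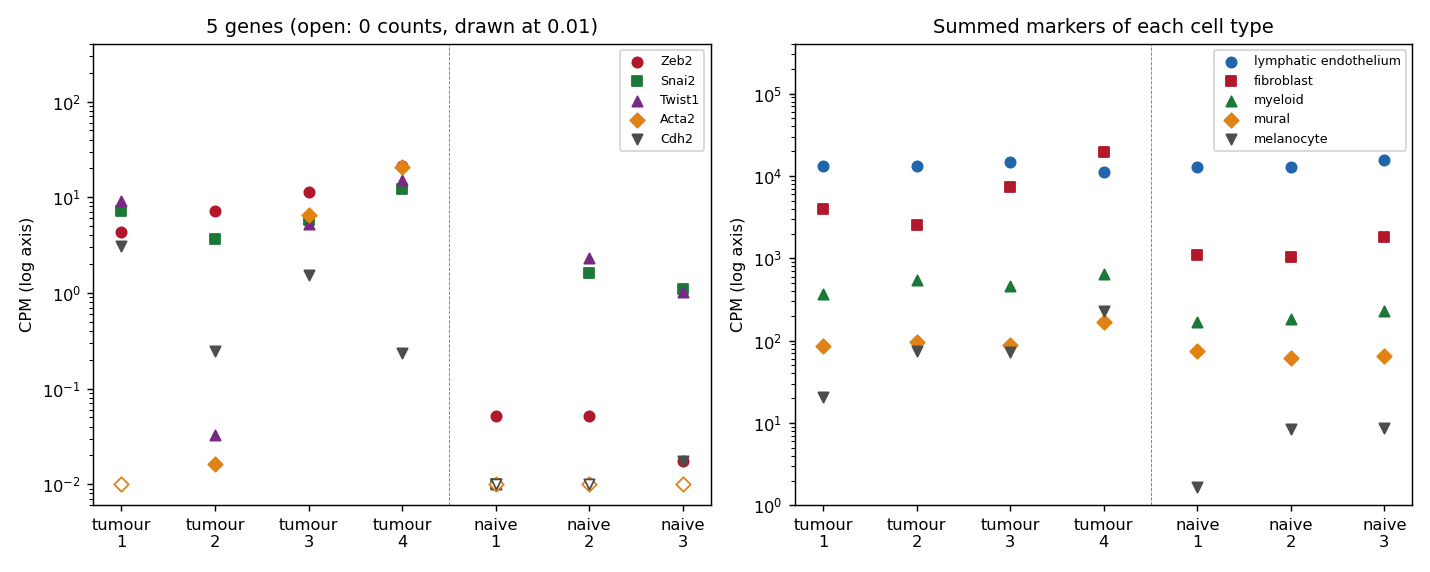
The left panel plots Zeb2, Snai2, Twist1, Acta2 and Cdh2 in CPM (log axis) in each of the 7 libraries, and the right panel the summed markers of 5 cell types in the same libraries. Tumour replicate 4 is highest for Zeb2, Snai2, Twist1 and Acta2 and for the fibroblast, myeloid, mural and melanocyte sums, and the lymphatic sum is 11183 CPM there.

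By the root mean square difference of centred log2 CPM over the 7 libraries, Cdh11 and Ctss were the genes most like Zeb2 among 8653 tested genes with a mean log2 CPM of at least 2 (predicted gene models, pseudogenes and Y-linked genes left out), at 1.25 and 1.26 log2 units, where the profile of Zeb2 itself spread by 3.54. Cdh11 encodes a cadherin of mesenchymal cells and Ctss a lysosomal cysteine protease of antigen-presenting cells. Cdh11 averaged 31.6 CPM in tumour and 0.426 CPM in naive skin, and Ctss 26.6 CPM in tumour and 0.823 CPM in naive skin. The cut-off on the mean over all 7 libraries leaves out low genes near absent in naive skin, which is the shape of Zeb2 itself. Genes closer to Zeb2 may therefore not have been compared, and the same holds for Cdh2.

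Zeb1 (chromosome 18, 5591860 to 5775467) had 127, 134, 109 and 94.2 CPM in tumour replicates 1 to 4, and 123, 124 and 99.6 CPM in naive replicates 1 to 3. The groups overlapped over nearly their whole range. The log2 fold change was 0.002, with a 95% interval of -0.38 to 0.38 and an adjusted p of 0.997 (edgeR), and its sign turned in 5 of the 19 alternative fits. Per kilobase of gene model, Zeb2 made up 1.73%, 2.66%, 5.14% and 10.4% of the sum of Zeb1 and Zeb2 in tumour replicates 1 to 4, against 0.00894% to 0.0216% in naive skin. Zeb1 was therefore the main Zeb transcript in all 7 libraries. This share was computed after the values were seen.

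The Snail genes stood on opposite sides. Snai1 (chromosome 2, 167538195 to 167542814), which encodes the family's founding repressor, had 8.23, 8.46, 8.14 and 10.6 CPM in tumour replicates 1 to 4, and 14.0, 13.3 and 15.1 CPM in naive replicates 1 to 3. Each tumour library lay below each naive library, as for 8.46% of all tested genes. The log2 fold change was -0.68 (SE 0.33, 95% interval -1.42 to 0.06), and the adjusted p of 0.342 (edgeR) did not pass. Cyth3, a guanine nucleotide exchange factor gene, had the profile most like that of Snai1, at 0.0521 log2 units, and it averaged 171 CPM in tumour and 269.6 CPM in naive skin.

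Snai2 (chromosome 16, 14705852 to 14709385), which encodes the factor also called Slug, had 7.15, 3.62, 5.79 and 12.1 CPM in tumour replicates 1 to 4, against 0, 1.63 and 1.11 CPM in naive replicates 1 to 3. The groups did not overlap; 9.57% of all tested genes had every tumour library above every naive library. With a log2 fold change of 2.97 (SE 1.45, 95% interval -0.34 to 6.27) and an adjusted p of 0.354 (edgeR), it did not pass; in the authors' deposited log2 values it passed with limma (adjusted p = 0.0391). Per kilobase, Snai2 made up 41.1%, 25.6%, 36.3% and 47.7% of the sum of Snai1 and Snai2 in tumour replicates 1 to 4, against 0%, 8.94% and 5.54% in naive replicates 1 to 3. The share follows from the values of both genes given above and adds no separate evidence. The gene most like Snai2 was Pdgfrb, a receptor gene of pericytes and fibroblasts, at 0.416 log2 units where Snai2 itself spread by 2.64. Pdgfrb had 22.8, 5.54, 15.9 and 45.1 CPM in tumour and 0.0687, 3.51 and 3.84 CPM in naive skin, so that both genes were lowest in naive replicate 1 and highest in tumour replicate 4. Lcp1 was the next most alike gene, nearly as close at 0.512 log2 units. Whether fibroblasts, mural cells or other cell types account for the Snai2 values was not tested.

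The Twist genes encode basic helix-loop-helix factors of mesenchymal and neural crest cells. Twist1 (chromosome 12, 33957671 to 33959829) had 9.24, 0.0328, 5.25 and 15.2 CPM in tumour replicates 1 to 4, against 0, 2.33 and 1.02 CPM in naive replicates 1 to 3. In tumour replicate 2 it had 2 counts, under the floor and below both naive libraries that had the gene, while the other 3 tumour libraries lay above all naive ones. The log2 fold change was 2.73 (SE 1.89, 95% interval -1.58 to 7.04, adjusted p = 0.543, edgeR). The collagen gene Col8a1 was nearest to Twist1, at 1.28 log2 units.

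Twist2 (chromosome 1, 91801461 to 91848028) had 0.0331, 2.21, 3.03 and 3.39 CPM in tumour replicates 1 to 4 and 1.43, 0.851 and 0 CPM in naive replicates 1 to 3. The tumour library with almost no Twist2 was replicate 1 and the one with almost no Twist1 was replicate 2. Every tumour library thus had at least 1 of the pair well above the floor, as did every naive library. Twist2 had a log2 fold change of 1.51 (SE 1.92, 95% interval -2.85 to 5.87, adjusted p = 0.781, edgeR). That value was 10.50 with lane in the model, which rests on 190 counts in tumour replicate 3 against 0 in naive replicate 3. It was 3.61 with sex, 2.31 with limma-voom and 0.24 in the deposited log2 values. Without naive replicate 3 it was 0.93, and without naive replicate 1 it was 2.34. Twist2 passed in none of these fits. Twist1 made up 99.8%, 2.81%, 77.1% and 89.7% of the per-kilobase sum of the pair in tumour, and 0%, 84.2% and 100% in naive skin, with no separation of the groups. At these counts the balance of the Twist genes was as uneven within a group as between groups.

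**Figure D3:**
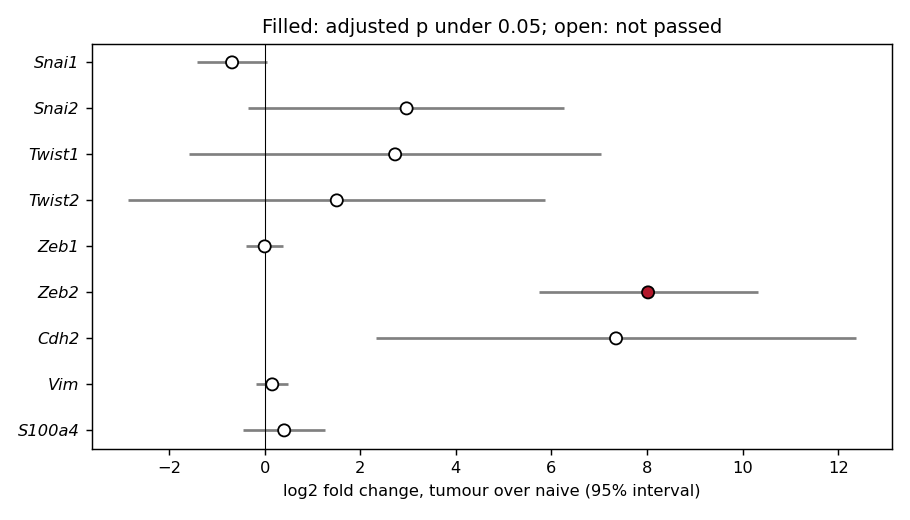
Points are log2 fold changes of tumour over naive for the 9 genes that passed the filter, and bars are 95% intervals from edgeR's quasi-likelihood fit; the filled point passed at an adjusted p of 0.05. Zeb2 is filled at 8.02, and the intervals of Zeb1 (-0.38 to 0.38) and Vim (-0.17 to 0.49) are the narrowest.

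Among the effectors, Vim (chromosome 2, 13573927 to 13582826), which encodes the intermediate filament protein of mesenchymal and endothelial cells, had 1499, 1790, 1233 and 1603 CPM in tumour replicates 1 to 4 and 1476, 1353 and 1285 CPM in naive replicates 1 to 3. The tumour libraries spanned the naive range, with replicate 3 below it and the other 3 above. The log2 fold change was 0.16 (SE 0.15, 95% interval -0.17 to 0.49), with an adjusted p of 0.673 (edgeR), and a rise of more than 0.49 on the log2 scale lies outside the interval. With lane in the model, which takes the difference from 1 library of each group in lane tag 8, the sign turned, at -0.06.

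S100a4 (chromosome 3, 90603771 to 90606045), which encodes a calcium-binding protein of motile cells also known as fibroblast-specific protein, had 14.4, 20.0, 9.16 and 18.5 CPM in tumour replicates 1 to 4, and 9.36 CPM in the lowest and 15.7 CPM in the highest naive library. Tumour replicate 3 was below every naive library, and replicates 2 and 4 were above them. The log2 fold change was 0.41 (SE 0.38, 95% interval -0.46 to 1.27, adjusted p = 0.682, edgeR). With lane in the model, again from lane tag 8 alone, it was -0.13.

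Cdh2 (chromosome 18, 16588877 to 16809246), the gene of N-cadherin, had 3.11, 0.246, 1.53 and 0.234 CPM in tumour replicates 1 to 4, against 0, 0 and 0.0173 CPM in naive replicates 1 to 3. These were 313 counts in the tumour libraries and 1 count in the naive libraries, with no overlap of the groups. The scaled ratio was 223 (exact 95% interval for counting error 39.7 to 8828); it was 118 without tumour replicate 1, and 148 and 149 without naive replicates 1 and 2. Without naive replicate 3, which holds the only naive count, it was at least 24.7 against the floor of 3 counts per library. The adjusted p was 0.141 with edgeR, which did not pass, and 0.00261 with DESeq2. The order over tumour libraries differed from that of Zeb2: Cdh2 was highest in replicate 1 and lowest in replicate 4. The 10 keratinocyte markers summed to 122, 61.2, 133 and 44.3 CPM in tumour replicates 1 to 4 and 5.23 to 64.1 CPM in naive skin. Of 9 tested, 0 passed with edgeR and 2 were higher at an unadjusted p under 0.05, while DESeq2 called 3 higher. Krt79, one of the 10 markers, had the profile most like that of Cdh2, at 1.18 log2 units, and did not pass (adjusted p = 0.0515, edgeR). Gpm6b, which is not in that list, was nearly as close at 1.22 log2 units. Gpm6b averaged 36.5 CPM in tumour and 1.86 CPM in naive skin and passed (adjusted p = 0.0186, edgeR). The part of other cell types in the Cdh2 counts was not tested.

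The endothelial cadherin gene Cdh5 remained far above Cdh2. It had 149, 114, 154 and 125 CPM in tumour replicates 1 to 4 and 101, 125 and 140.2 CPM in naive replicates 1 to 3, with a log2 fold change of 0.15 (adjusted p = 0.758, edgeR). Cdh2 made up 1.08%, 0.113%, 0.516% and 0.0978% of the per-kilobase sum of Cdh2 and Cdh5 in tumour, and 0.00642% in naive replicate 3, with 0% in the other two naive libraries.

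Acta2 (chromosome 19, 34241090 to 34255590), the smooth muscle actin gene, had 0, 0.0164, 6.45 and 20.9 CPM in tumour replicates 1 to 4 and 0 CPM in each naive library. Tumour replicates 3 and 4 had 404 and 1253 counts, replicate 2 had 1 and replicate 1 had 0, so the groups overlapped at 0. The tumour mean was at least 132-fold higher than a floor of 3 counts per naive library, and at least 41.6-fold without tumour replicate 4. The gene failed the filter; without a filter its adjusted p was 0.204 with edgeR, and with DESeq2 it was 4.87e-09. The high libraries, tumour replicates 3 and 4, also had the largest sums of fibroblast markers, 7410 and 19469 CPM, beside 4019 and 2561 CPM in replicates 1 and 2. Of 13 mural markers 6 were tested and 0 passed with edgeR, while 2 were higher at an unadjusted p under 0.05 and 3 were called higher by DESeq2. The mural sums were 86.1, 95.8, 87.4 and 167 CPM in tumour replicates 1 to 4 and 62.1 to 74.4 CPM in naive skin. The mural markers Rgs5, Cnn1 and Myocd had 0 counts in the naive libraries, and Myocd had 0 in all 7. Among the tumour libraries, Rgs5 had counts only in replicate 4 (25) and Cnn1 only in replicate 1 (109). The part of mural cells or fibroblasts in the Acta2 counts was not tested. Actin genes share near-identical coding sequence, and the sources used here do not say how reads that match more than 1 of them were counted.

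Levels can be set side by side between genes only per length, and counts per kilobase of merged exons were therefore scaled to the same total over all genes with a gene model, as in TPM. On that scale the order in tumour was Vim (1286 ± 215, SD, n = 4), S100a4 (106 ± 35.7), Zeb1 (44.6 ± 3.79), Snai1 (21.9 ± 4.77), Twist1 (18.8 ± 17.3), Snai2 (14.5 ± 8.43), Acta2 (13.6 ± 20.0), Twist2 (2.83 ± 2.05), Zeb2 (2.30 ± 1.73) and Cdh2 (0.606 ± 0.617). The ranges of Vim, S100a4, Zeb1 and Snai1 were separate from one another, and from Snai1 downward the ranges of neighbours overlapped. In naive skin the same 4 genes led in the same order, at 1051 ± 26.2 for Vim, 72.8 (55.3 to 96.1) for S100a4, 40.9 ± 2.80 for Zeb1 and 31.9 ± 3.94 for Snai1 (SD, n = 3), and Snai1 was 29.5 to 36.4 while Twist1, the next gene, was at most 5.12. Zeb2 thus reached 0.795 to 4.71 in tumour while remaining near the bottom of the order. The merged exons of all its transcripts add up to 19942 bases, and its value on this scale depends on that length.

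**Figure D4:**
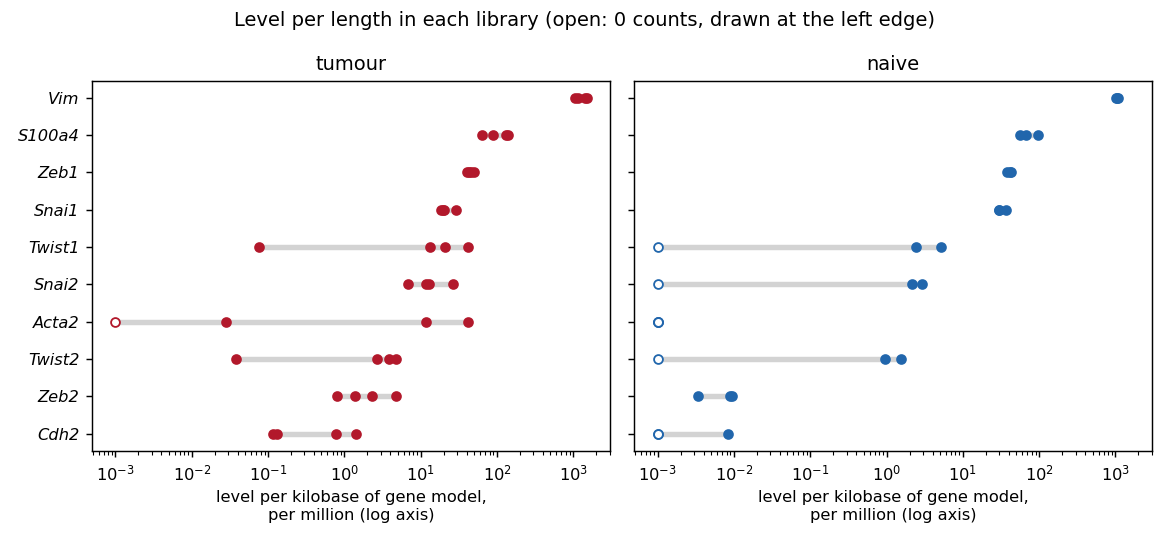
Points are the levels of the 10 genes per kilobase of merged exons, scaled to the same total over all genes (log axis), in the 4 tumour libraries (left panel) and the 3 naive libraries (right panel); open points are libraries with 0 counts. Vim, S100a4, Zeb1 and Snai1 lead in both groups, and Zeb2 lies between 0.795 and 4.71 in tumour and at 0.00936 or less in naive skin.

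Other genes of the transition were read from lists of related factors, inputs and targets. Of 20 related transcription factor genes 17 were tested; 3 were higher and 0 lower, beside 0.899% of all genes higher and 0.803% lower. At an unadjusted p under 0.05, 4 were higher and 3 lower (Foxc1, Id1 and Id3). DESeq2 called 4 higher and 4 lower, the lower ones being Foxc1, Id1, Id3 and Klf8, of which Klf8 failed the filter for edgeR. Sox9, a factor of neural crest, cartilage and hair follicle cells, averaged 66.6 CPM in tumour and 8.89 CPM in naive skin (log2 fold change 2.90, adjusted p = 0.0189). Sox4, a factor linked to TGF-beta responses, averaged 478 CPM in tumour and 234 CPM in naive skin (1.03, adjusted p = 0.0362). Prrx1, a homeobox gene of mesenchymal cells and fibroblasts, had 9.09, 1.71, 4.72 and 17.7 CPM in tumour and at most 0.104 CPM in naive skin (7.12, adjusted p = 0.0362). Sox9 alone passed without tumour replicate 1, tumour replicate 4 or naive replicate 3, and 0 passed without naive replicate 1 or naive replicate 2. The median log2 fold change of the list was -0.05, beside 0.04 over all genes tested.

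Of 12 TGF-beta ligand, receptor and SMAD genes, 0 passed with edgeR in either direction, and 3 were lower and 0 higher at an unadjusted p under 0.05, beside 7.83% and 9.1% of all genes. DESeq2 called 2 lower, Tgfb3 and Tgfbr2, and limma-voom called Tgfbr2 lower. Without tumour replicate 1, Tgfbr2 was called lower with edgeR too. Tgfbr2, which encodes the signalling receptor that binds TGF-beta, had 1496, 950.1, 972 and 889 CPM in tumour replicates 1 to 4 and 1689, 1657 and 1757 CPM in naive replicates 1 to 3 (log2 fold change -0.66, adjusted p = 0.126, edgeR). Tgfbr3, the co-receptor betaglycan, averaged 244 CPM in tumour and 261 CPM in naive skin. The list's median log2 fold change was -0.14.

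Contractile genes, to which Acta2 belongs by function, gave 0 calls among 9 tested of 14 listed with edgeR, 3 higher at an unadjusted p under 0.05 and 2 higher with DESeq2. Smtn, the smoothelin gene, averaged 386 CPM in tumour and 341 CPM in naive skin, and Cald1, the caldesmon gene, 162 CPM in tumour and 98.5 CPM in naive skin (adjusted p = 0.141, edgeR). The median of the list was 0.65 on the log2 scale.

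Mesenchymal adhesion and matrix genes gave 4 higher and 0 lower of 20 tested, beside 0.899% and 0.803% of all genes: Sparc, Cdh11, Mmp14 and Mmp2. At an unadjusted p under 0.05, 12 were higher and 0 lower, beside 9.1% and 7.83% of all genes. DESeq2 called 11 higher and limma-voom 5, with 0 lower, beside 6.95% and 0.751% of all genes higher. Sparc, a secreted matricellular gene, averaged 229 CPM in tumour and 30.4 CPM in naive skin (log2 fold change 2.91, adjusted p = 0.0217, edgeR), and for Cdh11 the log2 difference was 6.21 (adjusted p = 0.0217). The metalloprotease genes Mmp14 and Mmp2 had log2 fold changes of 1.09 and 1.76. Without any 1 naive library 0 of the list passed. Of the 20 tested genes 16 were highest in tumour replicate 4, and 5 of the 21 listed (Col1a1, Col1a2, Col3a1, Fap and Thy1) also stand in the fibroblast list. The list's median was 1.37.

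Junction and endothelial genes that the regulators are known to repress gave 0 calls among 14 tested of 17 listed with edgeR; at an unadjusted p under 0.05 there were 1 higher (Dsp) and 2 lower (Kdr and Tjp1), and DESeq2 called these 3. Kdr, a vascular growth factor receptor gene, averaged 767 CPM in tumour and 1226 CPM in naive skin, with an adjusted p of 0.160 (edgeR), and Tie1, an endothelial receptor gene, 891 CPM in tumour and 839 CPM in naive skin. The list's median was 0.12, with its sum at 3455 to 4536 CPM in tumour and 4352 to 5058 CPM in naive skin.

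**Figure D5:**
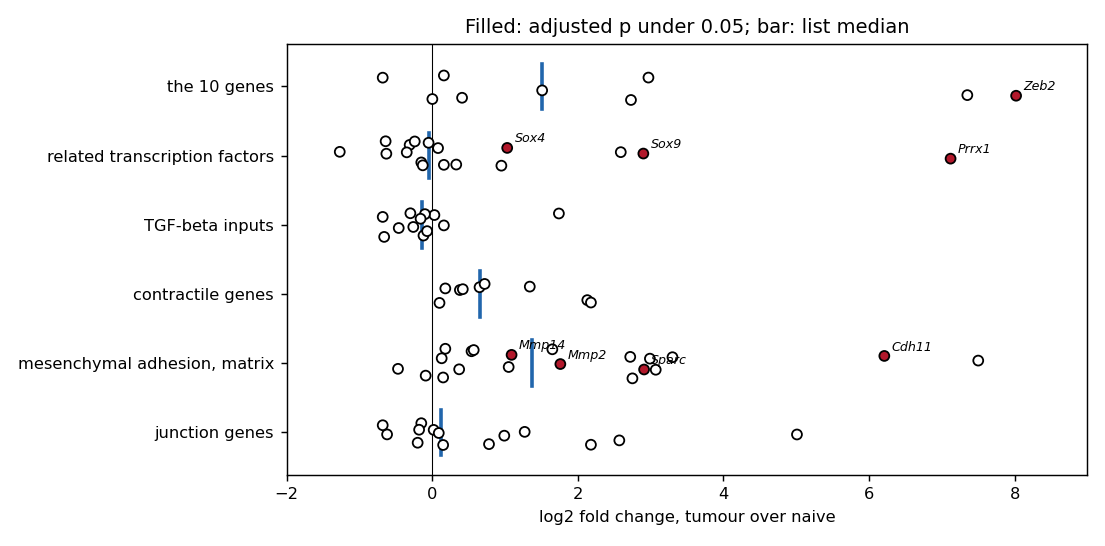
Points are log2 fold changes of tumour over naive for tested genes in the 10-gene set and 5 related lists, filled and named where the adjusted p passed 0.05, and blue bars are list medians. Filled points lie in the 10-gene set, the related factors and the matrix genes, all to the right of 0, and the medians run from -0.14 for TGF-beta inputs to 1.51 for the 10-gene set, whose members were chosen with results known.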

How the data were processed

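Raw counts by gene symbol and normalized log2 values, each with 1 column per library, were deposited by the authors. The submitters' processing notes name Trimmomatic 0.38 and mm10; the sources used here do not give the aligner, counter, annotation or normalization. Per the labels' protocols, cDNA came from a SMART-Seq v4 kit, which does not mark strand. In 25 of 26608 entries a date stood for the symbol (0.174% to 0.236% of counts); they were left out. Ccdc115 took 6.67% to 16.4% of counts.

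Counts were fitted in R 4.3.3 with edgeR 4.0.16 (filterByExpr, TMM, robust glmQLFit, glmQLFTest), and p-values were adjusted over all 13453 genes; the common biological coefficient of variation was 0.749. The fit was tested on simulated data. CPM use TMM-adjusted library sizes, likeness uses log2 CPM with a prior count of 2 and a mean of at least 2, and SE is the fold change divided by the square root of F. Gene models were GENCODE M21 (GRCm38, the assembly of mm10). Named genes were the 10 members, from each related list up to 4 genes past the threshold by p (otherwise the 2 most abundant), from each marker list the 3 most abundant and up to 3 past it, and the 2 most alike genes per member. Alternatives were DESeq2 1.42.0 and limma 3.58.1 (voom with an estimated weight per library, called limma-voom, and the deposited log2 values). Further ones were other scaling and filters, a non-robust fit, no Ccdc115, lane, sex or replicate block as a term, and each library left out. Members and lists were chosen with earlier results of these data known. One allele that the labels give for all groups is not reported here.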

Additional observations from a re-analysis of the deposited data

Results flagged for a closer look

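Of 54 genes examined, 5 had a tumour library far from the other 3, where the gap to the nearest library, as a share of the group's range, was above Dixon's critical value at 95% for 4 samples; chance flags about 1 in 20 groups. Snai1 was highest in tumour replicate 4, with a share of 0.870 (10.6 CPM, beside 8.14 to 8.46 CPM in the other tumour libraries). Without that library the log2 fold change of Snai1 was -0.77 and its adjusted p 0.378 (edgeR). Tgfbr2 had a share of 0.863 and Kdr one of 0.892, both highest in tumour replicate 1. Cd3e and Cd4, markers of T cells, had shares of 1 and 0.973, both highest in tumour replicate 4, with 96 and 36 counts.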

How the results depend on the processing

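The number of genes higher in tumour was 121 and lower 108 in the fit as reported. It was 190 and 169 with a filter of 5 CPM in 3 libraries, 951 and 568 with DESeq2, 192 and 164 with limma on the deposited log2 values, 6 and 6 with sex as a term, and 0 and 0 with lane as a term, where 1169 genes had an unadjusted p under 0.05. With limma-voom it was 101 and 173, and with upper-quartile scaling 156 and 92. Leaving out 1 library at a time gave 6 to 105 higher and 1 to 88 lower genes. Of the 10 genes, 1 was higher; the count was 0 with lane as a term, 0 with sex as a term and 0 with limma-voom, 3 with DESeq2, 2 with the deposited log2 values (Snai2 and Zeb2), and 0 to 1 without 1 library. None was lower in any of the 19 alternatives. The replicate numbers pair no libraries: same-numbered libraries had correlated deviations of -0.0367 to -0.00641, and 0 of the 3 naive libraries were closest to their own number. With the replicate number as a block, 3 genes were higher and 0 lower, and 0 of the 10 were higher (Zeb2 7.41, adjusted p = 0.141). The sign of Zeb1 turned without tumour replicate 1 (-0.04), tumour replicate 2 (-0.07) or naive replicate 3 (-0.09), with limma-voom (-0.02) and with the deposited values (-0.003); without 1 library it ranged from -0.09 to 0.10. With lane as a term, where the group difference rests on 1 library of each group, Vim was at -0.06 and S100a4 at -0.13. The sex term sets naive replicate 1 apart as the only pooled library, so that library adds nothing to the group difference. Other signs of the 9 tested genes did not turn in these alternatives. The cause of these changes was not tested. Naive counts of Zeb2, Cdh2 and Acta2 are at or near the floor, which limits their folds.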
